A study of Mus musculus with 51 samples.

Results

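The data describe how 22 clonal mouse cell lines of 1 labelled class differed from one another at day 16 of reprogramming. The lines are those that the labels describe as C-class, and their 22 arrays were chosen by that label from 51 in the series. Mouse embryonic fibroblasts of the rtTA Mouse strain had been given c-Myc, Oct4, Sox2 and Klf4, clonal lines were established, and the lines were kept in doxycycline so that the factors stayed on. RNA of each line was measured on 1 Illumina MouseRef-8 beadarray, so that every value below comes from 1 clone and 1 array. How a clone came by its class, and whether clones came from separate embryos or cultures, is not stated, so the p-values reflect the differences among these arrays, part of which may be technical. Nothing in the labels or headers sorts the clones further, and no second group was compared with them. A clone is named by the number in its label.

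Reprogramming factors turn a fibroblast toward a state in which it keeps dividing and expresses the genes of early embryonic cells. Pluripotent cells rest on a network of transcription factors, with Pou5f1 (Oct4), Sox2 and Nanog at its centre and Esrrb, Zfp42, Dppa genes and Nodal signalling around it. On the way, fibroblasts lose mesenchymal genes and gain epithelial ones such as Cdh1, the adhesion molecule E-cadherin. Cells of an epidermis make keratin filaments and a cornified envelope of crosslinked proteins.

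Levels are normalized log2 intensities, and the spread of a gene is its standard deviation (SD) over the 22 clones in log2 units. Of 16593 genes on the array, 10111 were detected in at least 2 clones and tested. The median SD was 0.274, and 332 genes (3.28%) had an SD of 1 or more. Levels of different genes are not comparable, since each probe has its own brightness. All clones carried epithelial markers, with 4 of the 5 epithelial markers on the array detected in every clone, among them Cdh1, which ran from 11.06 to 11.83 (SD 0.22) against 6.26 in the parental fibroblasts. Markers of other cell types were mixed. Of 8 fibroblast markers, Col1a1, Thy1 and Dcn were detected in all 22 clones, each with a median below the parental fibroblasts (9.03, 11.24 and 8.97 against 14.85, 14.56 and 12.80), and Lum and Postn in none. Of 6 immune markers, Lyz2 was detected in all clones (median 9.43 against 7.11 in the fibroblasts) and C1qb in 9, while Ptprc, Fcer1g and C1qa were undetected in all. Of 5 endothelial markers, Tek (median 9.62 against 6.06) and Kdr (6.06 against 6.27) were detected in all clones and Pecam1 in 10, while Cdh5 and Emcn were undetected in all. The part of such cells in the results was not tested.

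Quality differed little between the arrays. Between 47.5% and 52.2% of probes were detected, and the median raw intensity ran from 119.8 to 138.5. The clones correlated with each other over genes at 0.9227 to 0.9932 in 231 pairs, with a mean of 0.9691. Clones 21, 25 and 20 stood apart, with the lowest mean correlations with the other clones (0.9485, 0.9551 and 0.9598) and the most genes at least 2-fold from the median over the clones (1028, 881 and 623 genes, against 82 in clone 8). Results that rest on them are given below also without them, a choice made after the data were seen. The first 4 principal components of the clones held 27.5%, 18.1%, 11.1% and 9.24% of the variance. None of 8 relations of these components with the detected share or the raw intensity passed a permutation test (lowest adjusted p = 0.118).

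The spread was judged on a pair of scales, which ask different questions and gave unlike answers. The repeat scale came from 6 arrays of F-class cells, another labelled class, that had been given a histone deacetylase inhibitor for 0, 24 or 48 h, with a pair of arrays at each hour. The median SD within these pairs was 0.141 before limma's moderation, and the SD over clones was a median 1.74 times the moderated repeat SD. The variance over the clones exceeded that of the repeats for 4241 of 10111 genes (41.9%) by an F test with limma's moderated variances (adjusted p under 0.05). These repeats are other cells, treated at 2 of 3 times, so they only approximate the error of the clone arrays. The trend scale asked whether a gene varied more than genes of like brightness. It was fitted to the variances of these same genes over the same clones, so it holds their usual spread beside measurement error. Its prior had 2.92 degrees of freedom, and Dppa5a, with an SD of 2.58 against a trend SD of 0.16, had an unadjusted p of 0.000436. With this prior the test had little power, and a lack of calls does not show a lack of variation. By that test, in limma with a robust prior, 0 genes (0%) were called, and the lowest adjusted p was 0.814. An unadjusted p under 0.05 was found for 604 of the 10111 genes. The fit without the robust prior called 0 as well. The named genes below are therefore those with the largest SD, and it is not shown that any of them varied beyond the general trend of the clones. Dim and middling genes varied more than bright ones, with a median SD of 0.356 for 2510 genes at mean levels of 6 to 8 and of 0.142 for 880 genes above 12.

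**Figure D1:**
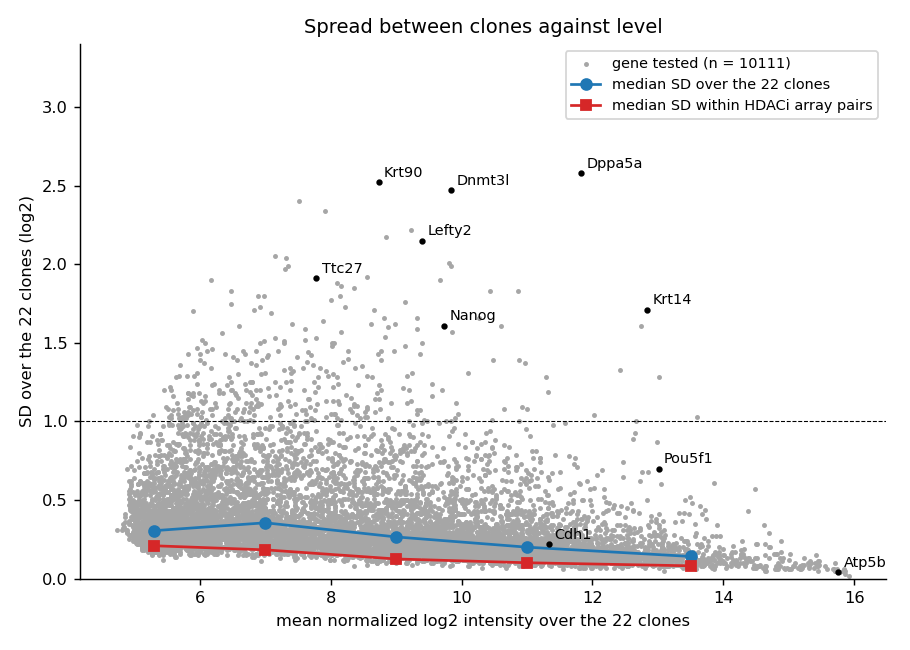
SD over the 22 C-class clones (vertical axis, log2) against the mean level (horizontal axis, normalized log2 intensity), with 1 point per tested gene, examples labelled, the dashed line at an SD of 1, and lines for the median SD in bands of mean level over the clones (blue) and within the pairs of repeat arrays (red). The SD reaches 2.58 for Dppa5a, while the median over all genes is 0.274, and bright genes spread less than dim ones.

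The 30 genes with the largest SD included both pluripotency and epidermal genes. Some are genes of pluripotent or early embryonic cells, among them Dppa5a, Dnmt3l, Ooep, Lefty2, Dppa4, Lefty1 and Otx2. Others are genes of the cornified epidermis, among them Krt90, Cnfn, Sprr1b, Asprv1, Lce1m, Lypd3, Krt16 and Ly6d. Of the 30 genes, 14 fell in the first of the sets of genes that vary together described below, and 9 in the third set. The level of 7 of the 30 was highest in clone 9, of 6 in clone 21 and of 6 in clone 22, and 7 were lowest in clone 20. The rank ended with Rbmxl2 at an SD of 1.75, and the genes just outside were Krt19 at 1.73 and Klk11 at 1.73. The bulk RNA of a clone does not tell fewer cells of a kind from less RNA per cell.

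**Figure D2:**
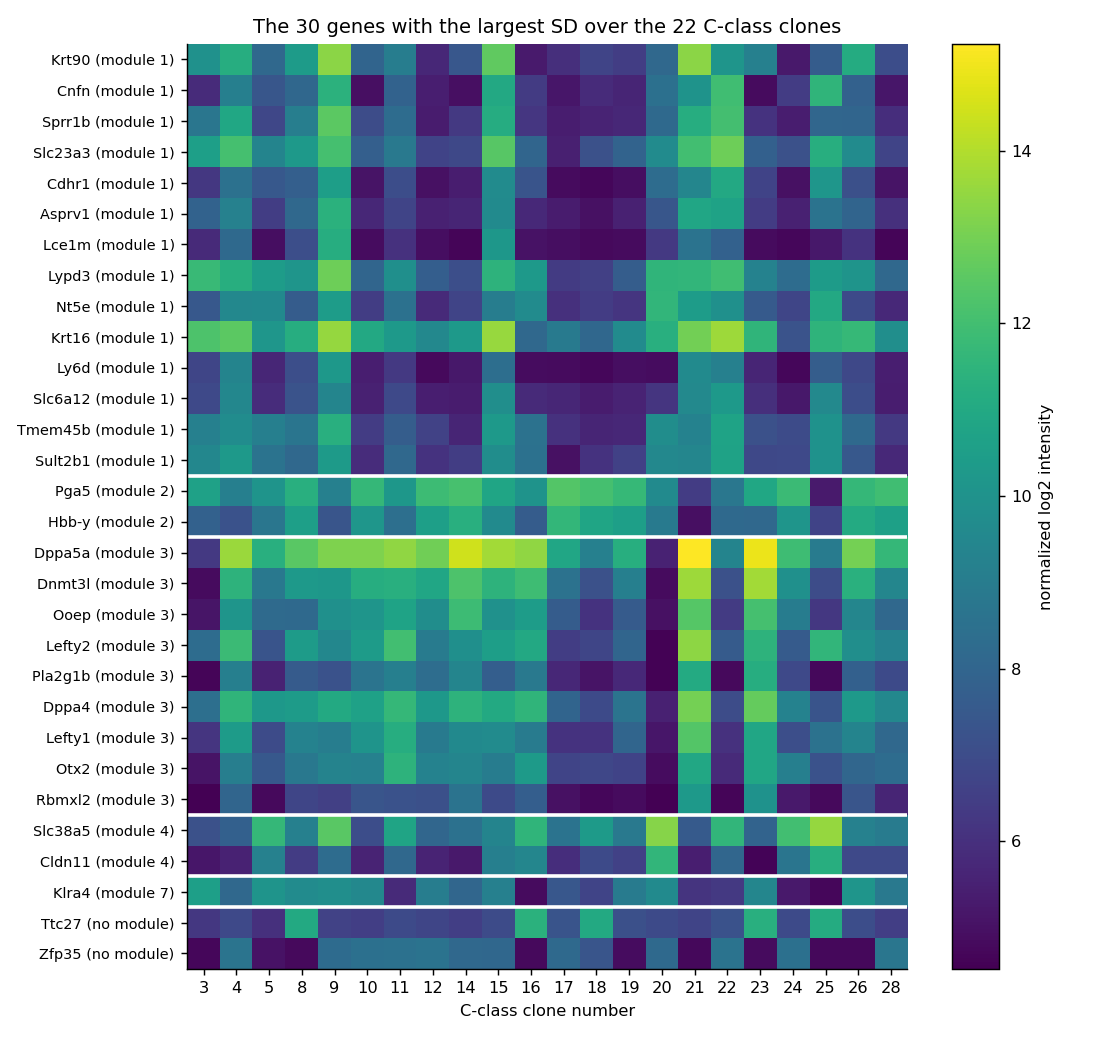
Level of the 30 genes with the largest SD (rows, grouped by set) in each of the 22 C-class clones (columns), as normalized log2 intensity. Colours compare clones within a row, since each probe has its own brightness. Epidermal genes such as Krt90 and Sprr1b are high in clones 9 and 22, and pluripotency genes such as Dppa5a and Dnmt3l are high in clones 21 and 23 and low in clones 3 and 20.

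Dppa5a, a marker of embryonic stem cells (ESC), had the largest SD, 2.58. Its level ran from 5.55 in clone 20 over a median of 12.71 to 15.24 in clone 21, and it was detected in all 22 clones. Clones 3, 18, 20, 22 and 25 lay between 5.55 and 9.35, the other 17 between 10.85 and 15.24, and the 2 ESC arrays stood at 15.85 and 15.87. The clones nearest the ESC were 21 (15.24) and 23 (14.94). Dppa5a did not exceed the repeat error (adjusted p = 0.0857 by the F test). Its SD within the pairs of repeat arrays was 2.63, or 1.49 after the moderation that the test used. The SD of Dppa5a was 1.72 when the mean over its probes was taken in place of the brightest probe. That mean includes a probe detected in 0 clones (4.68 to 5.50). The remaining probe ran from 6.01 to 14.94 and followed the brightest at r 0.99.

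Dnmt3l, the cofactor of the de novo DNA methyltransferases, had an SD of 2.47 and followed the same clones. Its lowest level was 4.84 in clone 3, its median 10.26 and its highest 13.77 in clone 23, and it was detected in 20 clones. Clones 3 and 20 (4.84 and 4.85) were at the level of the parental fibroblasts or below it (6.87). Ooep, a component of the maternal complex of the oocyte, ran from 5.00 over 9.23 to 12.41 (SD 2.17). Dppa4, which binds chromatin in pluripotent cells, ran from 5.50 over 10.26 to 12.98 (SD 1.99). Both were highest in clone 21. Otx2, a homeobox factor of the epiblast and anterior neural tissue, ran from 4.86 in clone 20 over 8.92 to 11.45 in clone 11 (SD 1.85).

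Lefty2, a secreted inhibitor of Nodal that Nodal itself induces, ran from 4.59 in clone 20 over 9.66 to 13.40 in clone 21 (SD 2.15, adjusted p = 2.93e-07 against repeats). It was detected in 21 clones. Lefty1, its close relative, had an SD of 1.92 and ran from 5.17 over 8.95 to 12.36. The 2 ESC arrays had Lefty2 at 12.37 and 11.71, so that clone 21 lay above them and the other 21 clones at or below 12.00. Nodal, the ligand, spread less than its inhibitors, from 4.74 over 7.30 to 9.34 (SD 1.09).

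Krt90, a keratin, had the second largest SD, 2.52, and ran from 5.24 in clone 24 over 8.15 to 13.38 in clone 9. Clones 9, 21 (13.36) and 15 (12.63) were the highest, and 6 clones lay below 7. Sprr1b, a precursor of the cornified envelope, was at 10.91 to 12.53 in clones 4, 9, 15, 21 and 22 and at 5.35 to 9.09 in the other 17 (SD 2.34). Cnfn, cornifelin, was detected in 15 clones and ran from 4.85 over 6.90 to 11.94 in clone 22 (SD 2.40). Krt16, a keratin of activated epidermis, ran from 7.25 over 11.10 to 13.67 (SD 1.83). Parental fibroblasts had Krt90 at 4.62, Sprr1b at 5.28 and Cnfn at 4.81, and ESC at 4.78 and 4.89, 4.97 and 5.14, and 4.84 and 4.96. The highest clones thus lay above both references for these 3 genes.

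More genes of the 30 belonged to the first set. Slc23a3 ran from 5.45 in clone 17 over 9.11 to 12.88 in clone 22 (SD 2.22). Cdhr1, a cadherin of photoreceptors, ran from 4.71 over 7.10 to 10.97 and was detected in 14 clones (SD 2.05). Asprv1, a protease of the stratum corneum, ran from 5.00 over 6.60 to 11.37 (SD 1.99). Lypd3, a surface protein of stratified epithelia, ran from 6.40 over 10.07 to 12.87 in clone 9 (SD 1.90). Lce1m, a late envelope protein, was detected in 10 clones, and Ly6d, a surface protein of keratinocytes, in 12, with SDs of 1.90 and 1.83. Sult2b1, the sulfotransferase that makes cholesterol sulfate in skin, ran from 5.00 over 8.15 to 10.70 (SD 1.77).

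Further genes among the 30 have other known roles. Nt5e, which makes adenosine at the cell surface, ran from 5.75 over 7.60 to 11.57 (SD 1.86). Klra4, of the Ly49 receptor family, ran from 4.72 over 8.91 to 10.59 (SD 1.88). Slc6a12, a betaine transporter, was at 9.39 to 10.33 in clones 4, 9, 15, 21, 22 and 25 and at 7.25 or less in the other 16 (SD 1.80). Slc38a5, a glutamine transporter, ran from 7.06 over 9.22 to 13.53 in clone 25 (SD 2.01). Cldn11, a claudin, ran from 4.64 over 6.89 to 11.58 in clone 20 (SD 1.97). Pga5, a pepsinogen, ran from 5.29 over 10.87 to 12.36 (SD 1.83). Hbb-y, an embryonic globin, ran from 4.96 in clone 21 over 9.28 to 11.62 in clone 17 (SD 1.76). Probes of globins, keratins, Sprr and Lce genes belong to families of near copies, so how far such a probe reads a relative is uncertain.

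Lists of genes of known role spread to unlike degrees. Of 29 tested pluripotency genes, 16 had an SD of 1 or more, 28 exceeded the repeats and the median SD was 1.07. Of 24 keratinocyte genes, 14 had an SD of 1 or more, 20 exceeded the repeats and the median was 1.12. Of 9 Nodal pathway genes, 5 had an SD of 1 or more, all 9 exceeded the repeats and the median was 1.05. These counts stand beside 3.28% of all genes for an SD of 1 or more and 41.9% for the repeats.

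Genes of the germline and two-cell list and primitive streak, trophoblast and neural genes varied less, yet more than most genes. Of 17 tested germline and two-cell genes 6 had an SD of 1 or more (median 0.75), and of 15 tested primitive streak genes 5 (median 0.80). Of 16 tested trophoblast genes 4 did (median 0.77), and of 11 tested neural genes 5 (median 0.79). These lists had 31, 23, 20 and 27 genes on the array, in the same order. Those detected in fewer than 2 clones were not tested, among them Sycp1, Sycp3 and Mael of the germline and two-cell list. The 6 genes of that list with an SD of 1 or more were Dppa3, Tex19.1, Tcstv3, Rhox6, Rhox9 and Rhox5. Dppa3 is on the pluripotency list too. Dazl and Ddx4 had SDs of 0.35 and 0.22. Of 24 tested Hox genes (38 on the array) 5 passed 1, with Hoxa9 the highest at 1.37, and the median was 0.46. Of 21 tested imprinted genes (29 on the array) 4 passed 1 (Phlda2, Cdkn1c, Igf2 and Nnat), and the median was 0.58. Phlda2, which limits placental growth, ran from 7.67 in clone 17 to 13.10 in clone 21.

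Housekeeping programmes had the lowest median SDs of the lists, but their genes are bright, and bright genes varied less. The mean levels of these lists lay between 10.57 and 12.12 in the clones. All tested genes at mean levels of 10 to 12 had a median SD of 0.201, and those above 12 one of 0.142. The part of brightness in the low SDs was not tested. Among 18 genes of oxidative phosphorylation none had an SD of 1 or more, 5 exceeded the repeats and the median SD was 0.15. Myc and ribosome biogenesis (21 genes, 6 beyond the repeats, median 0.19) and the cell cycle (28 genes, 10 beyond the repeats, median 0.26) were alike in that no gene reached 1. Of 37 fibroblast and matrix genes, 31 exceeded the repeats but 1 (Tgfbi) reached 1, with a median of 0.58. Of 30 epithelial genes 3 reached 1, and the median was 0.56.

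The 4 reprogramming factors had SDs of 0.33 to 0.88, measured by probes of which it is not known here whether they also read the transgenes. Sox2 ran from 5.22 in clone 25 over 7.06 to 8.85 in clone 12. Pou5f1 was at 12.59 or higher in 19 clones and at 10.72, 11.85 and 11.93 in clones 20, 22 and 25 (SD 0.70). Klf4 ran from 6.30 over 7.51 to 8.33 (SD 0.57). Myc ran from 6.22 over 6.81 to 7.61 and did not exceed the repeat error (SD 0.33, adjusted p = 0.0919).

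Genes that varied together formed 9 sets. The 500 genes with the largest SD were joined by average linkage on 1 minus the Pearson correlation over clones, cut at 0.5, and sets of at least 8 genes were kept. Correlations within and between sets are descriptions over the same 22 arrays, with no test. The level of a set in a clone is the mean, over its genes, of each gene's log2 deviation from its own mean over the clones.

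The first set held 134 genes, with a mean correlation of 0.67 between its members, and held more genes of the keratinocyte list than any other set. These were 11 of 24 (Krt14, Krt17, Krt16, Sprr1a, Sprr1b, Ly6d, Aqp3, S100a14, Dmkn, Sbsn and Klk8). The genes closest to its mean were Slc23a3 (r 0.97), Dmkn, Asprv1 and Cdhr1 (0.96). Its mean deviation ran from -1.38 in clone 17 to 2.00 in clone 9, and clones 9, 22 and 21 were highest and 17, 18 and 24 lowest.

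Krt14, the keratin of basal epidermis, shows this set's order. Its level ran from 9.93 in clone 17 over a median of 13.05 to 15.34 in clone 9 (SD 1.71), while fibroblasts were at 5.49 and ESC at 5.76 and 5.55. Even the lowest clone thus lay above these references. Krt17, a keratin of stressed epithelia, ran from 10.04 to 14.94 (SD 1.33). Krt5, the partner keratin of Krt14, was undetected in all 22 clones. Trp63, the master factor of stratified epithelia, was detected in 5 clones. The other keratinocyte markers, Krtdap and Sfn, were detected in all 22 clones, at 12.01 to 13.72 and 9.93 to 12.38. Fibroblasts had them at 4.68 and 5. Krtdap rose with Krt14 (r 0.64, rho 0.59, adjusted permutation p = 0.00211 over 27 pairs), with r 0.49 without clones 17 and 24.

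Promoters of the set were searched on both strands for TGANTCA, called AP-1 letters below, with any base at N. These letters are wider than the AP-1 site of the Fos and Jun factors, which has C or G there. The counts below do not separate the middle bases, and of the matches shown only those of Sprr1a and Dmkn have G. The search also took 3 other motifs (the octamer ATGCAAAT, the KLF box CCACACCC and CCAAT), and was chosen after the data were seen. The windows are RefSeq's for GRCm38.p6, 250 bases before to 50 after each gene's start. AP-1 letters were in 15 of 97 windows of the first set (15.5%), in 8.7% and 6.85% of those of the second and the third set, and in 5.7% of 8215 windows of tested genes. A match is a description, not a bound site. The 57 bases around the match are shown for the genes of the set that are among the 30 or on the keratinocyte list and hold it, 5 of 17 such genes with a window, with the match in capitals and the first base of the match upstream of the start.
Sprr1b (chr3:92438859-92438915, minus strand, 111 bases before the start): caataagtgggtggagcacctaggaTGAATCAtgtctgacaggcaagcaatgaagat
Sprr1a (chr3:92485996-92486052, minus strand, 146 bases before the start): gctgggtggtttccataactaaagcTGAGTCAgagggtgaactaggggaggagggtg
Slc6a12 (chr6:121342491-121342547, plus strand, 58 bases before the start): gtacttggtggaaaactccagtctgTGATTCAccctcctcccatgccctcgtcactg
Sbsn (chr7:30751327-30751383, plus strand, 119 bases before the start): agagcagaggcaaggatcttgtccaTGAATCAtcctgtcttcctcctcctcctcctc
Dmkn (chr7:30763642-30763698, plus strand, 89 bases before the start): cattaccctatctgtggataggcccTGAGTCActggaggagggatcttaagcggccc
The octamer was in 3.09%, 4.35% and 1.37% of windows of the first, the second and the third set (3 of 97, 4 of 92 and 1 of 73), against 1.56% of tested genes. The KLF box was in 8.25%, 3.26% and 5.48% against 3.97%, and the CCAAT letters were in 28.9%, 38.0% and 32.9% against 39.1%, in the same order.

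The second set held 118 genes (mean correlation 0.65) and ran opposite to the first, at r -0.82 between their means. It was highest in clone 17 (1.36), 14 and 28 and lowest in clone 25 (-1.62), 21 and 22. The genes closest to its mean were Pla1a, Spats2l, Rerg, Pllp and Trpv1. It contained Nanog and Nr5a2, 4 genes of the neural list (Neurog3, Insm1, Elavl4 and Nkx2-3), and Hoxa7 and Hoxa9. Only 11 of the 27 neural genes on the array were tested, and Sox1, Pax6, Neurod1 and Olig2 were undetected in all 22 clones. Hoxa9 ran from 4.58 in clone 21 to 8.67 in clone 17 (SD 1.37) and was detected in 16 clones. Neurog3, the factor of endocrine and neural precursors, was detected in 11 clones, at 8.64 in clone 14 and 8.51 in clone 10, with a median of 5.18.

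The third set, somewhat smaller (mean correlation 0.68), held more genes of the pluripotency list than any other set. These were 12 of 29 (Zfp42, Dppa3, Dppa4, Dppa5a, Lin28a, Utf1, Fbxo15, Eras, Tcl1, Dnmt3l, Dnmt3b and Otx2), and Nodal, Lefty1 and Lefty2. Of 15 primitive streak genes it contained 5 (Gsc, Fgf8, Bmp4, Sp5 and Axin2). Clones 21 (2.49), 23 and 11 were highest and clone 20 (-1.64), 18 and 22 lowest. Slc39a4 (r 0.98), Apoe and Folr1 (0.97) lay closest to its mean. Its mean correlated at 0.24 with the first set's and at -0.25 with the second's, and clone 21 was high in both the first and the third.

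**Figure D3:**
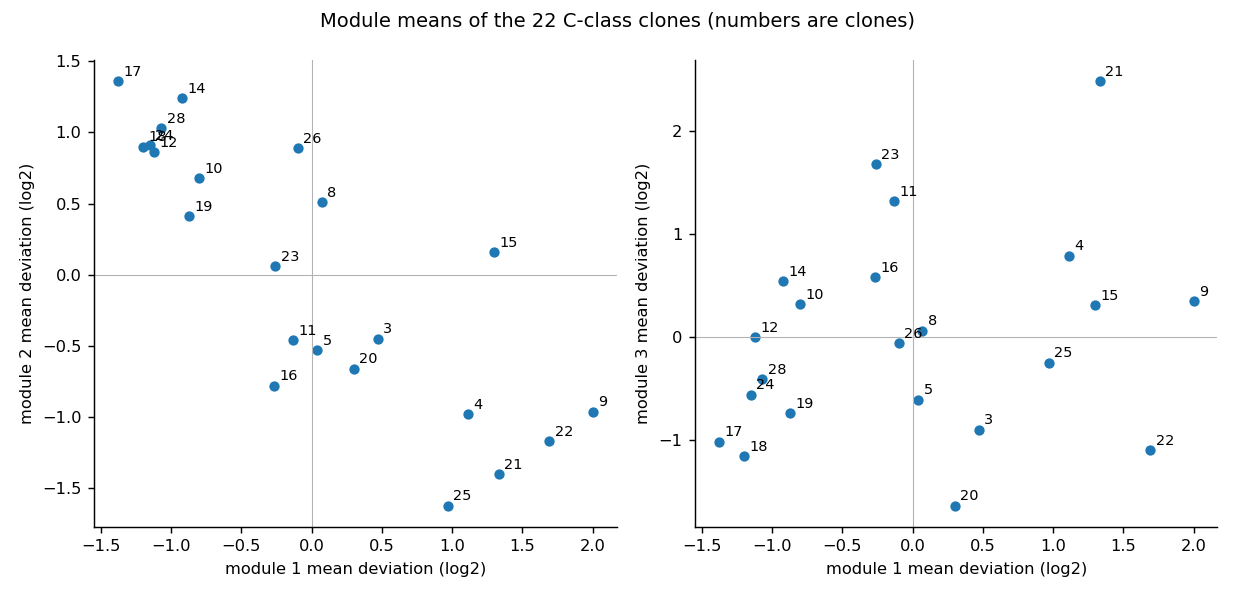
Mean deviation of the second set (left) and the third set (right) against that of the first set, in log2, with 1 point per C-class clone labelled by number. The second set runs opposite to the first (r -0.82), and the third spreads across the first (r 0.24), with clone 21 high in both.

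The smaller sets divided the clones otherwise. The sixth set (13 genes) held the pluripotency genes Esrrb, Tdgf1 and Gdf3 with Gbx2 and was lowest in clones 20 (-2.64), 25 and 22 and highest in 23 (1.44). Its mean correlated with that of the third set at 0.63. The fourth (22 genes, with Ero1b, E2f2 and Vegfd) was highest in clone 25 (2.87), and the eighth (12 genes, with Aoc1, Arpp21 and Scg5) in clone 20 (2.52), where the eighth opposed the third at r -0.68. The seventh (12 genes) held the epidermal genes Scel, Tgm1, Krt6a and Gprc5a apart from the first set and was lowest in clone 16 (-2.08).

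Most of the clones can be placed by the means of these sets. Clones 9, 22, 21, 15, 4 and 25 were high in the first set (0.97 to 2.00), and clones 17, 18, 24, 12, 28, 14, 19 and 10 were low in it (-1.38 to -0.80), all 8 of the latter between 0.41 and 1.36 in the second set. Clones 8 and 26 lay near the middle of the first and the third set (-0.10 to 0.07) and had few genes 2-fold from the median, 82 and 106. Clone 5 was near 0 in the first set and at -0.61 in the third, and clones 3 and 20 were low in the third (-0.90 and -1.64). Clones 11, 16 and 23 lay between -0.27 and -0.13 in the first set and between 0.58 and 1.68 in the third. Clones 10 and 12 were the most alike pair (r 0.9932 over genes). These are descriptions of single arrays, and the clones formed no labelled subgroups.

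Cutting the tree elsewhere or taking 250 or 1000 genes kept the 3 large sets. At a cut of 0.4 there were 9 sets with 88.1%, 85.6% and 91.3% of the 3 large ones still together, and at 0.6 there were 8 with all of them together. The 250 genes gave 5 sets and the 1000 genes 17.

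Next, each of 14 genes of known role was set against every other gene in a limma fit, with the gene's level as the numeric term, over the 22 clones (adjusted p under 0.05 over all genes of a fit). The share of genes called is the background for the counts of the lists.

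Nanog, a core factor of pluripotency, was associated with 1287 genes (12.7%), 635 rising and 652 falling with it. Nanog was at 5.22 in clone 20, at 7.50 to 8.87 in clones 3, 4, 5, 9, 22 and 25 and at 9.96 or more in the other 15, and was detected in 21 clones. Gpc3, a proteoglycan of embryonic growth, rose by 0.88 log2 per log2 unit of Nanog (SE 0.10, r 0.87, adjusted p = 1.56e-05), and Nt5e, an ectonucleotidase, fell by 0.83 (adjusted p = 0.00295). Of 28 other pluripotency genes 12 rose and 1 fell. Sox2 (r 0.71, rho 0.82, adjusted permutation p = 0.00063 over 27 pairs) and Esrrb (r 0.76, adjusted p = 0.00063) rose with Nanog, and r was 0.77 and 0.66 without clones 20 and 9. Dppa5a (r 0.69, rho 0.53, adjusted p = 0.00211) and Pou5f1 (r 0.71, rho 0.44, adjusted p = 0.00211) rose with Nanog too, but at r 0.45 and 0.41 neither passed without clones 20, 21 and 25 (adjusted p = 0.0842 and 0.122). Zfp42 did not pass (r 0.37, adjusted p = 0.141). Neurog3 rose with Nanog (r 0.66, rho 0.79, adjusted p = 0.00211).

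Dppa5a was associated with 395 genes (3.91%), 281 rising and 114 falling. Dnmt3l rose by 0.94 log2 per unit (SE 0.04, r 0.98, adjusted p = 3.39e-14), and Ooep (r 0.96), Dppa4 (0.91) and Pla2g1b (0.89) followed it. Of 28 other pluripotency genes 18 rose and none fell, and of 9 Nodal pathway genes 6 rose and none fell. Zfp42, which marks the naive state, was associated with 899 genes (8.89%), and 19 of 28 pluripotency genes rose with it. Tdrd12, a piRNA pathway gene, rose by 1.09 per unit of Zfp42 (SE 0.09, adjusted p = 5.77e-07). Dppa5a and Zfp42 correlated at 0.68 (rho 0.81), and at 0.92 without clones 20 and 3. Esrrb was associated with 663 genes (6.56%), with 16 of 28 pluripotency genes rising.

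These 3 counts rest in part on clones that stand apart. Without clones 20, 21 and 25, the Dppa5a count was 62, that of Zfp42 202 and that of Esrrb 4. Leaving out 1 clone, Dppa5a gave 162 without clone 20, 193 without 21 or 23, 217 without 22 and 946 without clone 3, Zfp42 gave 317 without 21 and 508 without 23, and Esrrb gave 201 without 20 and 397 without 22. Nanog's count was 1304 without the 3 clones.

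Pou5f1 was associated with 843 genes (8.34%) and Sox2 with 704 (6.96%). For Dppa5a against Pou5f1 the rank correlation was lower than Pearson's (r 0.59, rho 0.26). Without clones 20, 21 and 25 the counts were 135 for Pou5f1 and 65 for Sox2. Leaving out 1 clone gave 521 without 20 and 449 without 22 for Pou5f1, and 354 without 22 for Sox2. Sox2 rose with Pou5f1 (r 0.59, adjusted p = 0.00731). Klf4 and Sox2 did not pass (r 0.28, adjusted p = 0.271), nor did Myc and Klf4 (r 0.01, adjusted p = 0.969).

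Klf4 was associated with 953 genes (9.43%), and 341 without clones 20, 21 and 25. Cdkn1c, the imprinted inhibitor of cyclin-dependent kinases, fell by 2.24 log2 per unit of Klf4 (SE 0.23, r -0.90, adjusted p = 1.59e-05). Cdkn1c ran from 7.46 in clone 17 to 12.53 in clone 25, the clone with the lowest Klf4 (6.30). Myc was associated with 0 genes (0%), with 582 at an unadjusted p under 0.05 in limma, and Cdh1 with 0 genes (0%), with 1580 at an unadjusted p under 0.05.

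Krt14 was associated with 1532 genes (15.2%), 689 rising and 843 falling. Slc23a3, a member of the ascorbate transporter family, rose by 1.19 log2 per unit of Krt14 (SE 0.11, r 0.91, adjusted p = 2.47e-07), and Lypd3 (r 0.92), Sprr1b (0.89) and Krt90 (0.86) rose with it. Of 23 other keratinocyte genes 13 rose and 1 fell, Trp63. Of 30 epithelial genes 14 rose and 1 fell. Krt8, the keratin of simple epithelia, rose with Krt14 (r 0.83, adjusted p = 0.000135). Gpc3, Rerg, Dnaic1 and Hbb-y fell with Krt14. Nanog fell with Krt14 (r -0.49, rho -0.54, adjusted p = 0.0337), and the call was lost without clone 3, 9, 12 or 22 (r -0.43 to -0.46). Dppa5a and Krt14 did not pass (r 0.04, adjusted p = 0.954). The count was 1607 without the 3 clones.

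Lefty2 was associated with 997 genes (9.86%), 592 rising and 405 falling. Lefty1 rose by 0.83 log2 per unit (SE 0.07, r 0.93, adjusted p = 2.56e-07) and Acsbg1, an acyl-CoA synthetase, fell by 0.50 (adjusted p = 0.000277). Nodal rose with Lefty2 (r 0.86, rho 0.76, adjusted permutation p = 9e-05). Of 8 other Nodal pathway genes 5 rose, and of 29 pluripotency genes 16 rose. Of 17 germline and two-cell genes 10 rose and of 15 primitive streak genes 7 rose, with none falling in any of these lists. The count was 354 without clone 21 and 195 without clones 20, 21 and 25.

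Cdkn2a, which holds the p16 and p19 tumour suppressors, was associated with 1497 genes (14.8%), 811 rising and 686 falling. Its level was 8.96 in clone 21 and 10.62 to 11.78 in all others (SD 0.59, and 0.35 without clone 21). Hbb-y rose with it (2.52 log2 per unit, SE 0.33, adjusted p = 6.02e-05). Among lists, 10 of 16 trophoblast genes and 9 of 15 primitive streak genes fell with Cdkn2a. So did 8 of 17 germline and two-cell genes and 8 of 24 keratinocyte genes. The count over all genes was 883 without clone 21 and 850 without clones 20, 21 and 25. The counts of the lists were not taken without clone 21. The means of the trophoblast, primitive streak, and germline and two-cell lists were highest in that clone. Neither Cdkn2b (r -0.04) nor Cdkn1a (r 0.34) passed against Cdkn2a (adjusted p = 0.954 and 0.185), and r of Cdkn2a and Cdkn1a was -0.13 without clone 21.

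Neurog3 was associated with 710 genes (7.02%), 415 rising and 295 falling. Nkx2-3, a homeobox factor, rose by 0.93 log2 per unit (SE 0.10, r 0.89, adjusted p = 1.31e-05), and Insm1, a factor of endocrine and neural cells, rose with it (r 0.64, adjusted p = 0.0026). Of 10 other tested genes of the neural list 3 rose and none fell. As Neurog3 was detected in 11 clones, the levels of the other 11 are bounds. The count was 431 without clone 17 and 442 without clone 14.

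Col1a1, a main collagen of fibroblasts, was associated with 511 genes (5.05%), of which 402 rose with it. Its level ran from 7.33 in clone 25 over 9.03 to 9.91 in clone 15 (SD 0.74), against 14.85 in the parental fibroblasts, so that every clone was lower. Lox, which crosslinks collagen, rose by 1.16 log2 per unit (SE 0.06, r 0.97, adjusted p = 5.31e-12), and the smooth muscle gene Tagln by 1.04 (SE 0.06, adjusted p = 4.92e-11). Thy1, a surface marker of fibroblasts, correlated with Col1a1 at 0.96 (rho 0.96, adjusted permutation p = 9e-05, from the smallest p that 100000 permutations give). Of 36 other fibroblast and matrix genes 25 rose with Col1a1 and none fell. Col1a2, the partner chain, did not pass (r 0.26, adjusted p = 0.316) and ran from 5.17 to 6.09 only.

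In the opposite direction, genes of glycolysis and the response to low oxygen fell with Col1a1, 10 of 26 with none rising. Aldoc, an aldolase, fell by 1.32 log2 per unit (SE 0.21, r -0.80, adjusted p = 0.000198) and ran from 5.04 in clone 17 to 9.49 in clone 5. Mgarp fell by 1.23, Pfkp, a phosphofructokinase, fell by 0.81, and the oxygen sensor Egln3 fell too. Col1a1 correlated with the share of probes detected on an array at 0.47 (Krt14 0.35, Lefty2 0.30, Nanog 0.07), and with that share as a further term the count was 265. Summed fibroblast markers ran from 10.57 in clone 24 to 12.69 in clone 15 and summed immune markers from 8.75 in clone 24 to 11.03 in clone 15, with their part in the result not tested.

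**Figure D4:**
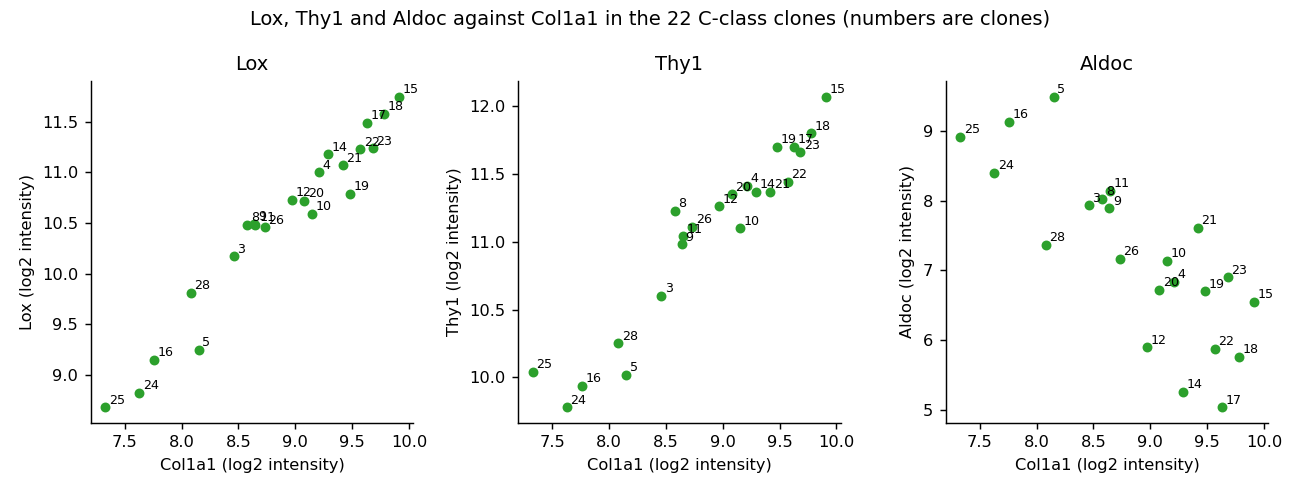
Level of Lox, Thy1 and Aldoc (vertical axes, normalized log2 intensity) against Col1a1 (horizontal axis, normalized log2 intensity), with 1 point per C-class clone labelled by number. Lox and Thy1 rise with Col1a1 (r 0.97 and 0.96), and Aldoc falls with it (r -0.80).

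Some genes were at separate levels, with no clone between them. A rule chosen after seeing the data took genes with a gap of at least 1.5 log2 between neighbouring clones and at least 3 clones on each side, and found 13, with no test. Ttc27 was at 11.03 to 11.37 in clones 8, 16, 18, 23 and 25 and at 6.00 to 7.30 in the other 17 (gap 3.73), around 8.48 in the parental fibroblasts. Atg3, an autophagy enzyme, was higher in the same 5 clones, at 8.32 to 8.61 against 5.27 to 6.76. These Atg3 levels rest on 1 of 3 probes, since the other two were detected in 0 and 1 clones and did not follow it (r -0.28 and -0.32). Wdr46 and Cenpq were low in clones 8, 16, 23 and 25 (5.91 to 6.37 and 4.75 to 5.41) and higher elsewhere (9.23 to 10.61 and 7.97 to 9.35). Zfp35 was at 4.71 to 5.05 in 9 clones and 7.35 to 8.72 in 13.

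Wdr46, Zfp35 and Ttc27 were each compared with the 12 genes closest by the size of the correlation, whether positive or negative. Genes on the same chromosome ran both ways, such as Cenpq (r 0.99) and Zfp472 (r -0.85) for Wdr46. For Zfp35 they included Impact (r 0.94) and Arhgap12 (r -0.96). Of the 12 closest to Wdr46, 7 lay on its own chromosome, 17, which holds 5% of tested genes. Of the 12 closest to Zfp35, 5 lay on its chromosome, 18, which holds 2.33%. Of the 12 closest to Ttc27 none lay on chromosome 17.

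The genes of a chromosome deviated together in a few clones. For each chromosome and clone the median deviation of genes with a mean level above 8 was taken, by a rule also chosen after seeing the data, and 7 of 440 medians were 0.15 or more in size. On chromosome 1, with 255 genes, clone 16 was 0.44 and clone 3 0.32 above the genes' medians, and 88.6% and 82.7% of the genes lay above them. On chromosome 5, with 351 genes, clone 4 was at 0.27 (85.2% above) and clone 20 at 0.18 (77.2%). On X, with 162 genes, clones 21 and 23 were at 0.30 and 0.23 and clone 3 at -0.15. The other medians lay between -0.08 and 0.08. In 10 consecutive stretches of chromosome 1, clone 16 ran from 0.34 to 0.53 and clone 3 from 0.18 to 0.44. In 10 stretches of chromosome 5, clone 4 ran from 0.09 to 0.36 and clone 20 from 0.13 to 0.23. In 10 stretches of X, clone 21 ran from 0.12 to 0.53, clone 23 from 0.08 to 0.45 and clone 3 from -0.61 to 0.10, so that 1 stretch of clone 3 had the opposite sign. With quantile normalization and with the authors' scaled values, 6 of the 7 medians again reached 0.15, while X in clone 3 was at -0.14 under both. Copy number was not measured. Xist, the RNA that coats an inactive X, was at 8.28 to 9.15 in all clones.

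**Figure D5:**
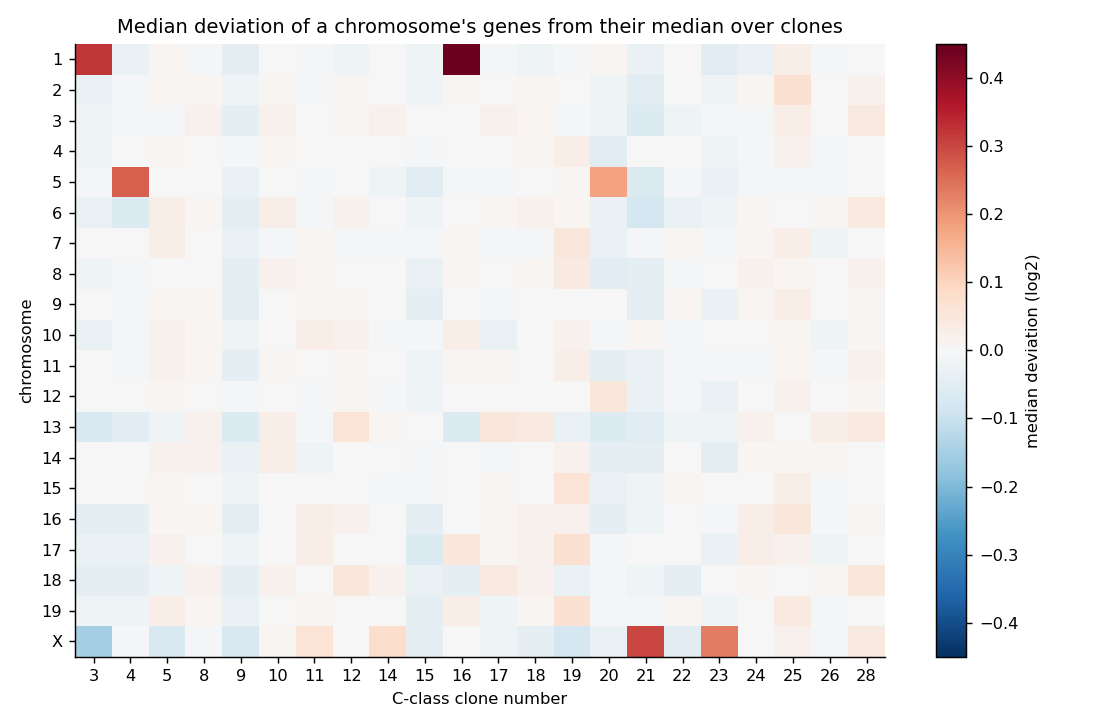
Median log2 deviation of the genes of each chromosome (rows) from their median over clones, in each C-class clone (columns). Chromosome 1 in clones 16 and 3, chromosome 5 in clones 4 and 20 and X in clones 21 and 23 stand above 0, X in clone 3 is at -0.15, and the remaining cells lie between -0.08 and 0.08.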

How the data were processed

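RNA of 22 C-class clones was measured on 1 beadarray each. An RNeasy kit gave the RNA and a Bioanalyser its quality, per the labels' protocols. Raw intensity values were deposited, each with a detection p-value that the authors deposited beside it. Their scaled intensity values, made by a method not given in the sources used here, served as an alternative. Scanner, labelling steps and genome build are unstated.

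In R 4.3.3, limma 3.58.1 corrected background and normalized between all arrays by quantiles (function neqc, offset 16). Of 25697 probes 23978 had 1 gene symbol, 1719 had none and 0 had several, and each gene took its brightest probe. Of 16593 genes, 16582 matched RefSeq GRCm38.p6 by Entrez identifier, used for names and chromosomes. Genes with a detection p-value under 0.05 in at least 2 clones were tested, and undetected levels are bounds. The number of arrays limits the precision. Columns not mapped to a sample numbered 0.

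Variances were tested against limma's trend and against repeat arrays, slopes by lmFit and eBayes, and 27 fixed pairs by permutation (100000 resamples, two-sided) in Python 3.11.15 with numpy 2.4.6, pandas 2.3.3 and scipy 1.17.1, all adjusted by Benjamini-Hochberg. Scripts were tested on simulated data. Against repeat arrays, 86% of 100 genes with an added SD of 0.5 were recovered, with 19 false calls among 10111 genes. Against the trend, 85% were, with 68 false calls, but there the other genes had repeat-array spread, unlike the clones. The fit on Nanog recovered 19% of 100 genes set at a correlation of 0.6 and 90% at 0.8, with 5 false calls. Genes were named by a rule: the 30 with the largest SD among genes called against the trend, the 6 largest positive and negative slopes per fit, the 8 genes closest to each set's mean, leaving out Rik, LOC, Gm and clone names, and the fixed lists and pairs. Since the trend test called none, the 30 were taken regardless of that call, a departure made after values were seen. The members, lists and rules were chosen with earlier results of these data known. Of 16 planned genes for the slopes 14 were fitted, as Meg3 and Ddx3y were not among the genes tested. The alternatives were other normalization, filters, probe means, leaving out clones, the detected share as a term, a replicate block for the repeats and other cuts of the tree. An array batch could not be tried, as all 22 clones share 1 number format and the headers show no other batch.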

Additional observations from a re-analysis of the deposited data

How the results depend on the processing

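No alternative turned the direction of a gene pair that passed the test. Among pairs that did not pass, r of Cdkn2a and Cdkn1a ran from -0.13 (without clone 21) to 0.44, r of Dppa5a and Krt14 from -0.05 to 0.19, r of Myc and Klf4 from -0.07 to 0.11, r of Cdh1 and Zeb1 from -0.16 to 0.04 and r of Cdh1 and Col1a1 from -0.09 to 0.10 when 1 clone was left out, and with the detected share removed r of Cdkn2a and Cdkn2b was 0.38 (reported as -0.04) and r of Asns and Ddit3 0.06 (-0.24). The number of genes varying with Cdh1, 0 as reported, was 5 with quantile normalization and no background correction, 5 with the authors' scaled values, 8 with detection in at least 11 clones and 9 with the mean over probes. The number varying with Col1a1 was 265 with the detected share as a term. Without clones 20, 21 and 25, chosen after seeing the data, the counts were 62 for genes varying with Dppa5a, 4 for genes varying with Esrrb, 202 for genes varying with Zfp42, 135 for genes varying with Pou5f1, 65 for genes varying with Sox2, 341 for genes varying with Klf4, 1 for genes varying with Myc, 850 for genes varying with Cdkn2a and 195 for genes varying with Lefty2, and r of Nanog and Dppa5a (0.45) and r of Nanog and Pou5f1 (0.41) no longer passed. The cause was not tested.

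Leaving out 1 clone at a time, the count ran from 162 to 946 for Dppa5a, 201 to 775 for Esrrb, 317 to 1094 for Zfp42, 449 to 996 for Pou5f1, 354 to 790 for Sox2, 0 to 90 for Cdh1, 431 to 841 for Neurog3, 883 to 1673 for Cdkn2a and 354 to 1156 for Lefty2. For Cdh1 it was 12, 90, 16, 38 and 25 without clones 16, 19, 24, 26 and 28. Genes beyond the repeat arrays numbered 3924 to 4355, and 5202 with a replicate block for the repeats, whose same-numbered arrays had differences correlating at 0.0964 to 0.227 between hours, so that the pairing is not shown. Of 374 counts without 1 clone, 353 stayed within 1.5 times, as did 105 of 119 under other settings. Of 251 SDs under other settings 86 moved by more than the SD's own standard error under normality, and 5 of 924 did so without 1 clone. The SDs of the genes with the largest SD and of the genes used for the slopes were smaller with quantile normalization or the authors' scaled values, and 23 of the 30 genes with the largest SD were the same with each. Levels of undetected genes are bounds.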
